A study of Mus musculus with 5 samples.

Results

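The genes described here are 8 transcription factors of pancreatic progenitors and acinar cells, namely Ptf1a, Hnf4a, Sox9, Pdx1, Foxa2, Gata4, Gata6 and Prox1. They were taken by name, and a gene was called bound when a REST site present in both E13.5 libraries lay inside the gene body or within 100 kb of its start. The peak lists were called on each library by itself, and bound or unbound refers to these lists alone. By this rule 3 of the 8 genes (37.5%) were bound, Ptf1a and Pdx1 by 1 site each and Hnf4a by 2, whereas Sox9, Foxa2, Gata4, Gata6 and Prox1 were not. The same rule called 2648 of 22238 protein-coding genes bound (11.9%). The 8 genes were chosen with earlier results of these data known, so their share is given without a test. Their 4 sites are among 1860 sites of the whole series, each site being 1 or more overlapping peaks.

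Chromatin of whole wild-type pancreas, from untreated embryos of a mixed strain with C57BL/6, was immunoprecipitated with an anti-REST mouse monoclonal (12C11) and sequenced. The 2 E13.5 libraries came from pools of 4 to 6 pancreases and the 3 E18.5 libraries from pools of 3 to 4, and they are called by stage and letter. All groups share the antibody and the background, and no group lacks REST. The chromatin came from all cells of the organ, so the cell type that carried a peak cannot be told, and peak lists give no expression with which the tissue label could be checked. The E13.5 lists held 1400 and 1333 peaks and the E18.5 lists 541, 417 and 226. Sequencing depth is unknown, and a peak missing from a list was not called there, which is no measurement of absent binding.

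REST is a zinc-finger repressor that binds a DNA element called RE1 and recruits corepressors, and it is known for keeping neuronal genes silent outside the nervous system. Pdx1, Ptf1a, Sox9, Hnf4a, Foxa2, Gata4 and Gata6 are known to act in the early pancreatic epithelium, and several of them are later kept in only one lineage, such as Ptf1a in acinar cells, Pdx1 mainly in beta cells and Sox9 in ducts. Prox1 is a homeodomain factor that is present in pancreatic progenitors and is lowered as acinar cells form.

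The sequences under the sites of the bound genes were read first, because RE1 is the element through which REST contacts DNA. A weight matrix of the element was learnt from shared E13.5 sites outside the windows of the 8 genes, so no sequence of theirs was used to make it. Its most frequent base at each of 21 positions spelled the first line below. The 3 lines after it give the best matches under the Ptf1a site and both Hnf4a sites, read from mm9 with the match in capitals.
RE1 consensus learnt from the series: TTCAGCACCATGGACAGCGCC
Ptf1a site, chr2:19350772-19350832, plus strand: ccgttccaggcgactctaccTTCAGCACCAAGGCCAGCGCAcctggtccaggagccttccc
Hnf4a upstream site, chr2:163265091-163265151, plus strand: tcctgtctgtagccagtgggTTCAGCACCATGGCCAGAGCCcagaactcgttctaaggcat
Hnf4a intron site, chr2:163390559-163390619, minus strand: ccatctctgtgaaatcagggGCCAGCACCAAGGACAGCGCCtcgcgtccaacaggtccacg

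These 3 matches differed from the consensus at 3, 2 and 3 of 21 positions. Their matrix scores, which are sums of log2 odds in bits, were 26.9, 29.2 and 30.3 of a largest possible 35.6. A score of 17.3 bits was reached by about 1 in 1000 of 11679 control windows of 500 bp placed 10 to 50 kb from the sites, and the shared sites themselves had a median of 25.7 bits. At that limit 75.3% of the 1179 sites used for learning held a match. The matches lay close to the peak centres, at 2.5 and 4 bp in E13.5 A and B for the Hnf4a upstream site and at 14 and 0 bp for the intron site. At the Ptf1a site the distances were 6 bp in E13.5 A and 101.5 bp in E13.5 B, whose peak was 360 bp long against 163 bp.

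The Pdx1 site had no such match, its best score being -11.3 bits, a value that 7924 of the 11679 control windows also reached. It held instead both parts of the element with a wider space. The left part of the matrix (positions 1 to 9) and the right part (positions 12 to 21) are separated by 2 bases in the consensus and by 9 bases here. The line below gives this stretch in mm9, with the parts in capitals.
Pdx1 site, chr5:148000252-148000279, plus strand: TTCAGCACCactagcgctGGCCAGCACC

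The left part equalled the consensus at all 9 positions and the right part differed at 2 of 10. The summed score of 28.6 bits, the best over spaces of 3 to 12 bases, was reached by none of the control windows, and the limit passed by about 1 in 1000 of them was 22.9 bits. Among the 292 shared sites without a full match, 137 (46.9%) passed that limit. The spaced search was added after the Pdx1 site was seen to lack a full match, and its result is a description. The stretch lay 46.5 and 9 bp from the peak centre in E13.5 A and B, and 99.5 and 20.5 bp from it in E18.5 A and B. It included the annotated start of Gsx1 and overlapped that gene's 5' untranslated region.

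Ptf1a encodes the basic helix-loop-helix subunit of the PTF1 complex, which drives acinar enzyme genes and, earlier, pancreatic commitment. The gene is at mm9 chromosome 2, 19367290 to 19369128, on the plus strand, and its site (19350724 to 19351083) was 16.2 kb upstream of its start, over an exon of the non-coding transcript Gm13344. No other protein-coding start was nearer, the next being that of Msrb2 at 57.7 kb. The authors' peak score was 23 in E13.5 A and 13 in E13.5 B, and no peak was called in E18.5 A, B or C. Ranked within each library, with 100 the highest, these scores stood at 79.96 and 29.5, so that the site was in the upper part of one list and the lower part of the other. The difference of 50.5 rank points was larger than in 98.5% of the 1186 shared sites, whose median difference was 11.2.

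Hnf4a, a nuclear receptor of liver, gut and pancreas, has 7 annotated transcripts between 163332544 and 163398646 on chromosome 2, plus strand. Its upstream site (163264884 to 163265366) was 67.2 kb before the first of these starts. The same site was in an intron of Gdap1l1, 0.672 kb downstream of the start of that gene, which is a relative of the neuronal gene Gdap1. The scores were 18 and 22 in E13.5 A and B, at ranks of 66.0 and 65.4, and no E18.5 library had a peak. Both E13.5 libraries thus placed it at nearly the same height.

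The second Hnf4a site (163390349 to 163390829) was inside the gene, in intron 7 of the 10-exon transcript Hnf4a-001 (163390046 to 163391856). It was 57.8 kb downstream of the first start and 17.4 kb downstream of the start of Hnf4a-001, at 163372923. With 1 start per gene, the nearest other protein-coding start was that of Ttpal at 37.2 kb, and the shorter Hnf4a transcripts began closer to the site than that. The scores of 19 and 23 stood at ranks of 69.7 and 68.0, and again no E18.5 library had a peak. Of the 2648 bound genes 465 (17.6%) had 2 or more sites, as Hnf4a did.

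Pdx1 encodes the homeodomain factor required for the growth of the pancreatic bud and for beta-cell function. It is at chromosome 5, 148081535 to 148089584, plus strand, and its site (148000026 to 148000556) was 81.0 kb upstream. This was the farthest of the 4 sites from its gene, and it overlapped the first exon of Gsx1, a homeobox gene of neural progenitors. The scores were 19 in E13.5 A, 31 in E13.5 B, 11 in E18.5 A and 8 in E18.5 B, with no peak in E18.5 C. Their ranks of 69.7, 84.6, 84.6 and 73.6 were in the upper part of each list. It was the only one of the 4 sites with a peak in any E18.5 library, and E18.5 C, where it was missing, had the shortest list.

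**Figure D1:**
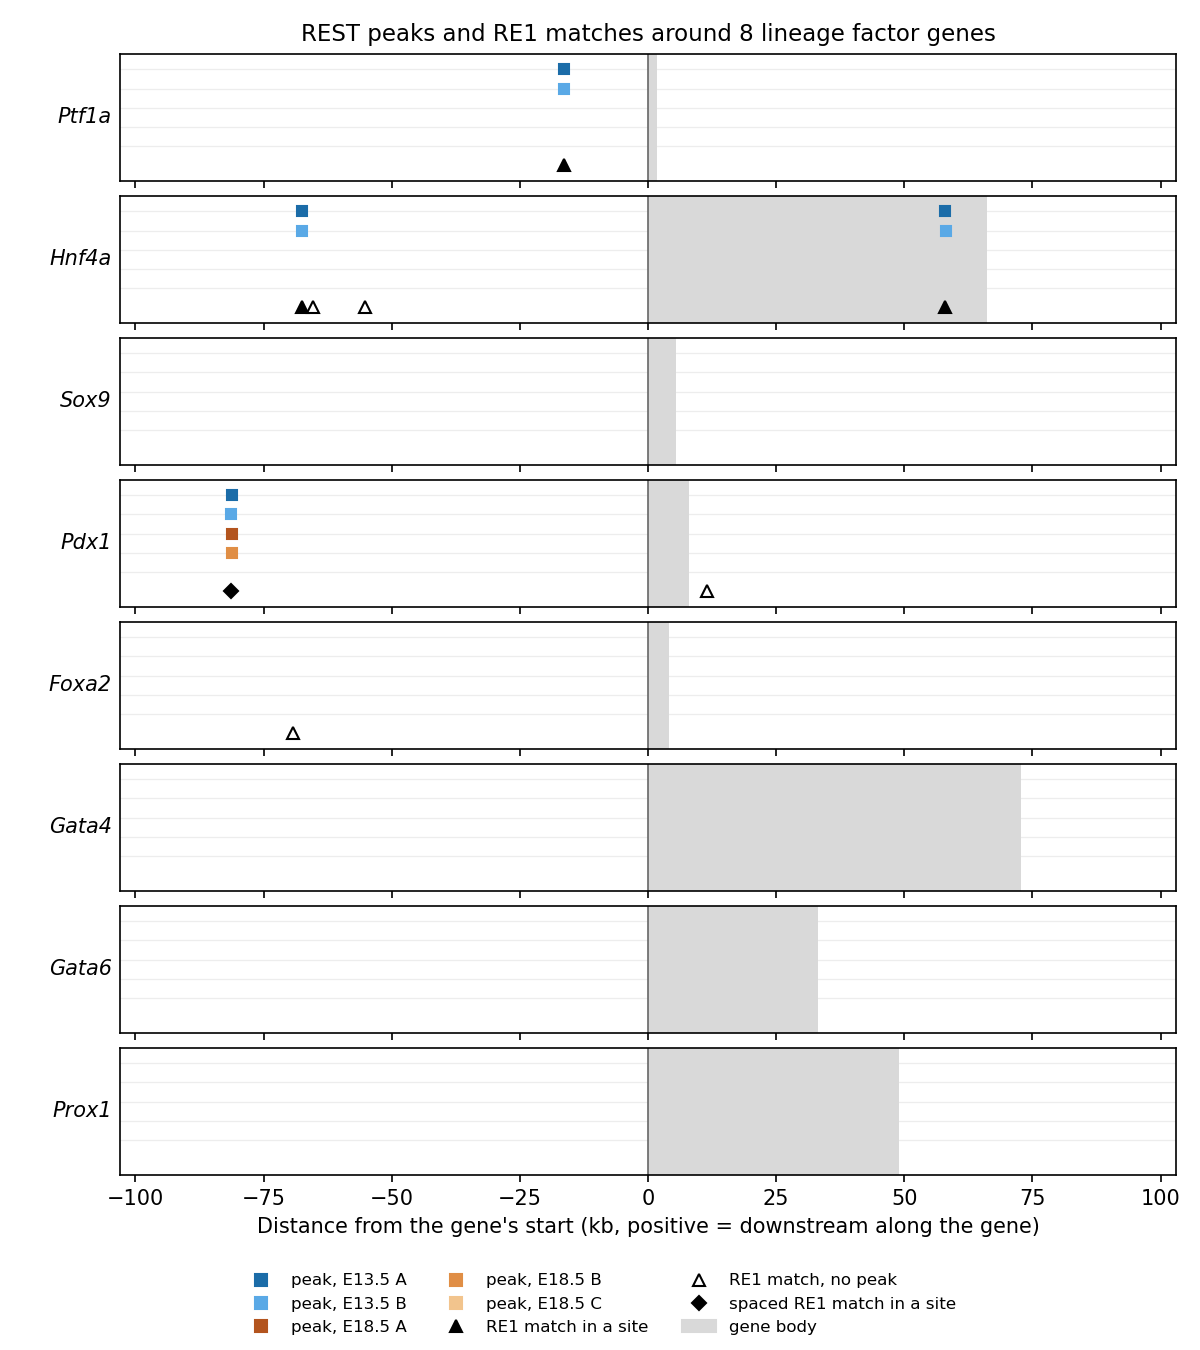
Called peaks (squares, 1 row per library, in the order of the key) within 100 kb of the start of each of the 8 genes, with the gene body in grey and RE1 matches of at least 17.3 bits as triangles, filled where they lie in a site. The horizontal axis is the distance from the start in kb. Ptf1a, Hnf4a and Pdx1 have peaks, the other five panels have none, and the Pdx1 peaks lie over the spaced RE1 match (diamond).

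The ranks of the bound genes' sites were middling to high among the shared E13.5 sites. The mean of both ranks was 54.7 ± 35.7 for Ptf1a, 65.7 ± 0.438 and 68.9 ± 1.16 for the Hnf4a upstream and intron sites, and 77.1 ± 10.5 for Pdx1 (SD, n = 2 libraries). These means were above those of 50.3%, 63.7%, 66.4% and 75.5% of the shared sites. The order of the 4 sites is not fixed by these values, since the spread at Ptf1a covered all of the others and that at Pdx1 reached the mean of the Hnf4a intron site. None of the 3 genes was bound when every list was shortened to its 226 top-scoring peaks, at which 2.73% of all genes were bound.

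**Figure D2:**
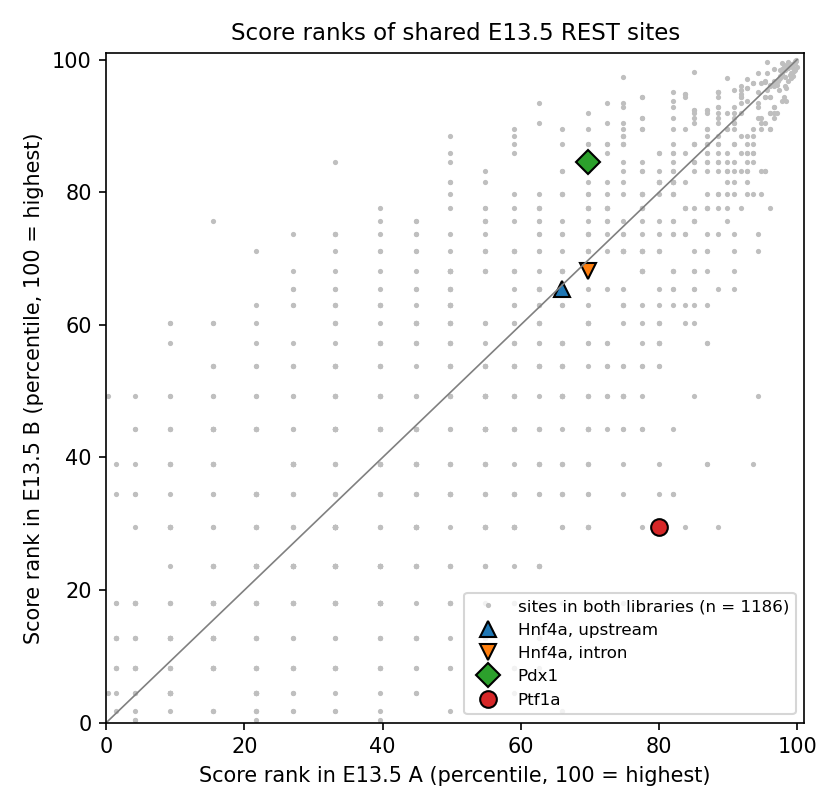
Score rank of each of the 1186 shared sites in E13.5 A (horizontal axis, percentile) and E13.5 B (vertical axis, percentile), with the sites of the bound genes as large symbols and the line of equal ranks. Both Hnf4a sites lie by the line, Pdx1 is above it and Ptf1a, at 79.96 and 29.5, is far below it.

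More of the 8 genes had a called peak in each E13.5 library than in any E18.5 library. Any peak in the window was present for 3 genes in E13.5 A (13.6% of all genes had one), for 3 in E13.5 B (13.1% of all genes), for 1 in E18.5 A (5.85%), for 1 in E18.5 B (5.36%) and for 0 in E18.5 C (3.7%). The means were 3 ± 0 (SD, n = 2) and 0.667 ± 0.577 (SD, n = 3) genes per library, a difference of 2.33 (two-sided exact permutation p = 0.2). That p is the smallest that 2 libraries against 3 allow, so the test cannot decide whether the stages differ. The genes were also chosen with earlier results of these data known, and the share of all genes was likewise lower in each E18.5 library. A site in at least 2 E18.5 libraries was present for 1 of the 8 genes, Pdx1, against 4.01% of all genes. With a peak in any of the 5 libraries the bound genes were again Ptf1a, Hnf4a and Pdx1, against 16.8% of all genes.

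The number of genes moved with the length of the lists, whose part in the difference was not tested. Among the 226 top-scoring peaks of each library Pdx1 alone was reached, in E13.5 B, E18.5 A and E18.5 B, and the difference between the stages became -0.167 (exact permutation p = 1). Shared sites whose mean E13.5 rank was within 10 points of that of each member site were looked up for comparison. For Ptf1a that mean, 54.7, was far from both of its ranks, 79.96 in E13.5 A and 29.5 in E13.5 B. Of the shared sites around the mean Ptf1a rank 35.7% (97 of 272) were called in 1 or more E18.5 libraries. Around the mean Hnf4a ranks the shares were 43.9% (122 of 278) and 47.7% (124 of 260), and around the mean Pdx1 rank 69.0% (178 of 258). The exact 95% intervals were 29.97 to 41.7, 37.96 to 49.9, 41.5 to 54.0 and 63.0 to 74.6, and the share was highest around the rank of Pdx1. Whether its rank bears on the E18.5 calls of the Pdx1 site was not tested. A peak in 2 or more E18.5 libraries was found for 33.7% of the sites around the Pdx1 rank.

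The 5 unbound genes had no peak of any library in their windows. Gata4, a zinc-finger factor of early endoderm and acinar cells (chromosome 14, 63817759 to 63890529, minus strand), had the nearest shared site of the 5, at 409.6 kb upstream. It was in an intron of Xkr6 (64300087 to 64300847), had a match of 29.9 bits and was called in all 5 libraries, at ranks of 98.8 and 99.2 in E13.5 A and B. A peak of low rank, 15.4, in E13.5 A alone was nearer, 218 kb upstream of Gata4, and its nearest start was that of Tdh.

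Foxa2, a forkhead factor that opens endodermal chromatin and lies upstream of Pdx1 (chromosome 2, 147868613 to 147872705, minus strand), had its nearest peaks at 170, 1285, 1820.0, 2385 and 4035 kb in the E13.5 libraries A and B and then the E18.5 libraries A, B and C. The E13.5 A peak (148043023 to 148043136) was thus set apart from the others. It was intergenic, at a rank of 15.4, Foxa2 was the protein-coding gene with the nearest start, and its window held a match of 22.8 bits. No peak of E13.5 B was called there, and the nearest shared site was 1285 kb away on the other side, with the nearest start that of Plk1s1, at ranks of 21.6 and 4.46.

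Sox9, an HMG-box factor that maintains progenitors and later marks ducts (chromosome 11, 112643538 to 112649074, plus strand), had its nearest peaks at 1870.4, 1870.2, 1870.4, 5803 and 2270.2 kb in the same order of libraries. The shared site at 1870.2 kb was by the ribosomal protein gene Rpl38. Prox1 (chromosome 1, 191945660 to 191994559, minus strand) had its nearest peaks at 2121, 2121, 2287, 2868 and 2868 kb, the shared one in an intron of the potassium channel gene Kcnh1 at ranks of 15.4 and 18. Gata6, the partner of Gata4 in early pancreas growth (chromosome 18, 11052508 to 11085633, plus strand), was the most remote of the 8 genes from a shared E13.5 site. Its nearest peaks were at 5913, 10022, 3257, 1105 and 14774 kb, and the one at 1105 kb, in E18.5 B alone, was nearer than the nearest peak of any library at Sox9 or Prox1. No distance of these 3 genes came near the limit of 100 kb in any library.

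Set among 22208 genes with a shared site on their chromosome, the 8 genes covered nearly the whole range of distances. A nearer shared site than that of Ptf1a was found for 2.78% of genes, of Hnf4a for 7.19% and of Pdx1 for 9.66%. For the unbound genes these shares were 35.1% (Gata4), 65.5% (Foxa2), 74.8% (Sox9), 77.7% (Prox1) and 96.3% (Gata6). The median over the 8 genes was 847 kb, against 715 kb over all genes. The bound genes had a median of 57.8 kb and the unbound ones 1870.2 kb, a gap that the rule itself makes. All 8 windows were 200 kb long. The windows of Ptf1a, Hnf4a and Pdx1 held 1, 6 and 3 other protein-coding starts, those of Sox9, Foxa2, Gata6 and Prox1 0 and that of Gata4 2.

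**Figure D3:**
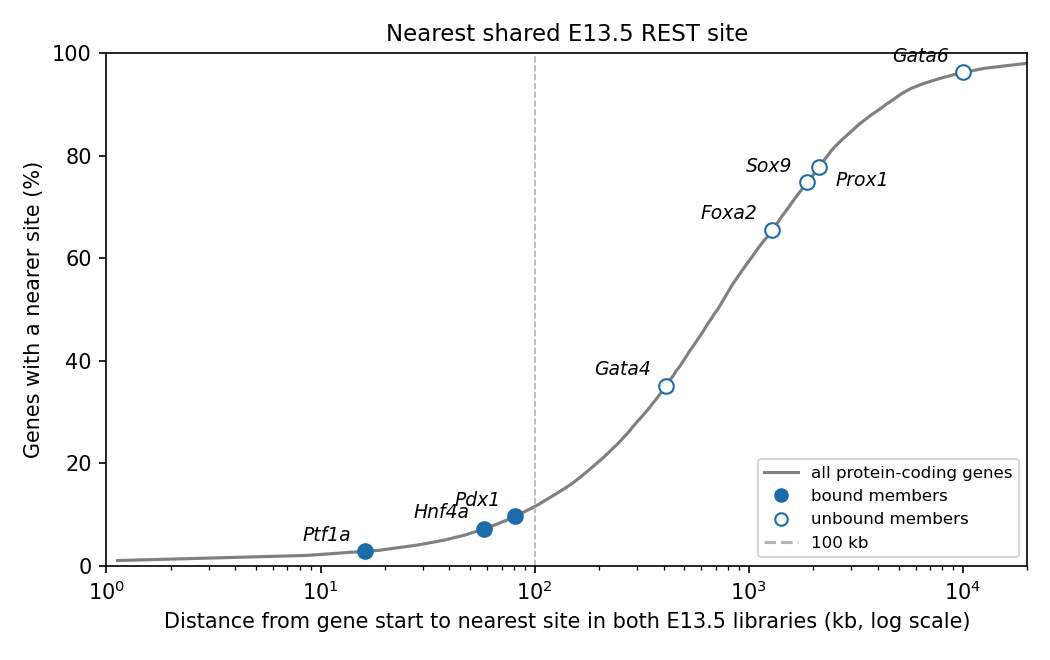
Percent of protein-coding genes with a nearer shared E13.5 site (vertical axis) against the distance from the gene start to that site in kb (horizontal axis, log scale), with all genes as a line, bound members filled and unbound members open. Ptf1a, Hnf4a and Pdx1 are left of the dashed line at 100 kb, and the other five run from 409.6 kb for Gata4 to 10022 kb for Gata6.

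RE1 matches were then counted over the windows whether or not a peak was called. The 8 windows held 7 matches of at least 17.3 bits, 4 at Hnf4a and 1 each at Ptf1a, Pdx1 and Foxa2, and 3 of the 7 lay in a shared site (42.9%, exact 95% interval 9.90 to 81.6). Over all gene windows 826 of 3026 did (27.3%, 25.7 to 28.9), where the matrix had been learnt from the same sites. The interval for the 8 windows takes the 7 matches as independent, although 4 came from the Hnf4a window. The genes were chosen with earlier results of these data known, so no comparison of these shares is drawn. The windows of Sox9, Gata4, Gata6 and Prox1 held no match at this limit. Their best stretches scored 14.2, 12.7, 11.9 and 14.6 bits, a range (9.73 to 17.3 bits) in which 0.393% of matches had a shared site. The limit of 17.3 bits was set on control windows of 500 bp, whereas the windows of the genes were 200 kb long. The share of all gene windows that held a match was not counted. The number of genes with a match is therefore a description, with no background beside it.

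The 4 matches without a peak are shown to set them beside the bound ones, in the order of their scores, with all 21 bases of the match.
Hnf4a, chr2:163277287-163277307, minus strand: TCCAGCACCATAGCCAGCTCC
Pdx1, chr5:148093065-148093085, plus strand: CTCAGAACCCTGGACAGGGGC
Hnf4a, chr2:163267156-163267176, minus strand: ACCACCACCCAGGACAGTGCC
Foxa2, chr2:147941941-147941961, plus strand: TTAACCACCAGGGACAGTTCC

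The first of these was 55.2 kb upstream of Hnf4a in a coding exon of Gdap1l1 and scored 22.7 bits, with 4 mismatches. The Pdx1 match was intergenic, 11.5 kb downstream of the start and so much nearer to the gene than its peaks were, and scored 22.4 bits with 5 mismatches. The second Hnf4a match, in a Gdap1l1 intron 65.4 kb upstream, scored 18.4 bits with 6 mismatches, and the intergenic Foxa2 match, 69.2 kb upstream, scored 17.8 bits with 5. All 4 scored below each of the 3 matches in sites. Over all gene windows the share of matches with a shared site was 1.82% from 17.3 to 18 bits, 3.06% from 18 to 20 bits, 25.9% from 22 to 24 bits, 73.6% from 26 to 28 bits and 88.7% from 28 bits up. The matrix had been learnt from the same shared sites outside the member windows, so these shares are no independent background.

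**Figure D4:**
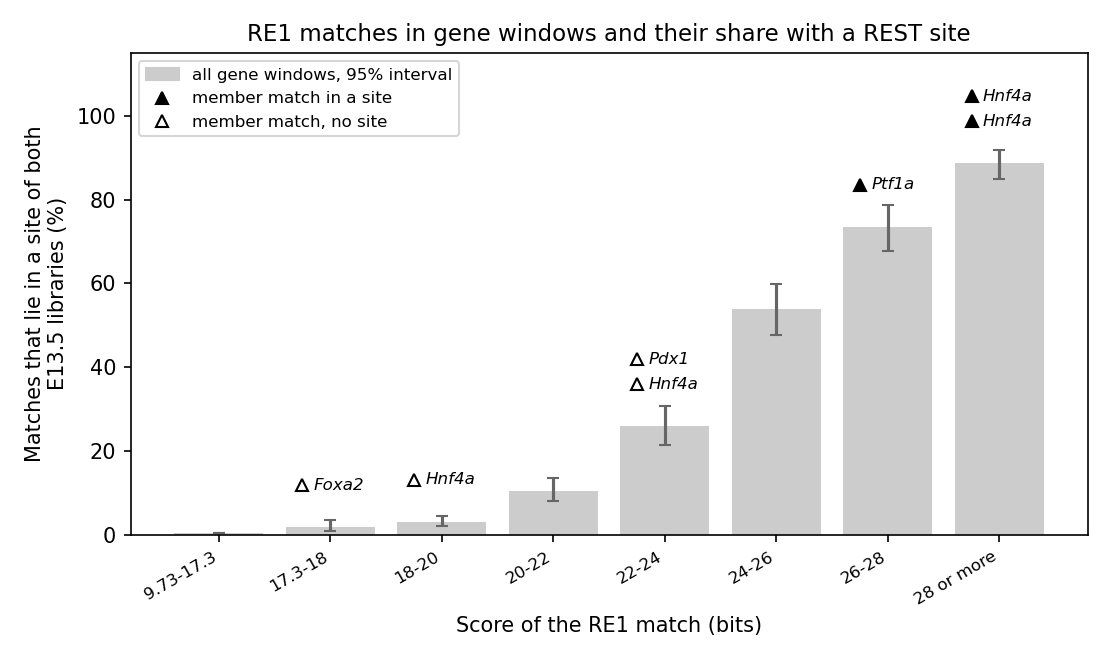
Share of RE1 matches in all gene windows that lie in a shared E13.5 site (bars, %, exact 95% intervals) by match score in bits, with the 7 matches of the member windows set above the bar of their score at no particular height. The matches in sites (filled) are over the bars of 73.6% and 88.7%, and those without a site (open) are over bars of 1.82% to 25.9%. The matrix was learnt from shared sites outside the member windows, so the bars are no independent background.

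The sites also differed in base composition and in what lay beside them. The 500 bp around the Pdx1 site had 64.2% G and C and 41 CpG pairs, whereas the Ptf1a site had 48.4% and 11 pairs, the Hnf4a upstream site 50% and 7 pairs and the Hnf4a intron site 46.2% and 9 pairs. The shared sites had a median of 49.2% and 7 pairs with a full match (891 sites) and of 51.6% and 10 pairs without one (292 sites), and control windows of 45.8% and 4 pairs. Within 1 kb of a protein-coding start lay 14.3% of the former and 28.1% of the latter, and at the 8 genes the Hnf4a upstream site and the Pdx1 site did, both by the start of another gene. When each site was given only to the gene with the nearest start, 1 start per gene, Ptf1a alone stayed bound, against 4.37% of all genes. Of the 2648 genes bound by the window rule, 814 (30.7%) had a site whose nearest start was their own.

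Related lists were counted by the same rule to place the 8 genes in their network, without a test, and each count stands beside the 11.9% of all protein-coding genes that were bound. Of 16 other progenitor and endoderm factors 2 were bound (12.5%, near the share of all genes), Foxa3 and Onecut1. Foxa3, a relative of Foxa2, had a site 71.7 kb downstream of its start (chromosome 7, 19536692 to 19537212) with a mean E13.5 rank of 90.6 and a peak in all 3 E18.5 libraries. Onecut1, a cut-homeodomain factor of progenitors, had one 6.48 kb downstream (chromosome 9, 74716211 to 74716575) at a mean rank of 49.6. Of 12 acinar factors and enzymes, among them Bhlha15, Rbpjl, Nr5a2 and Cpa1, 0 were bound. Of 10 family relatives of the 8 genes 2 were bound, Foxa3 again and Gata5, by 2 sites of which the better ranked, at 65.0, was 83.0 kb upstream. Of 12 endocrine commitment factors 5 were bound (41.7%), Neurod1, Fev, Insm1, Myt1 and Neurog3, at mean ranks of 94.8, 76.1, 40.3, 25.5 and 19.3. Their better-ranked sites were 2.14 kb downstream, 6.04 kb upstream, 4.57, 1.25 and 4.87 kb from the start, against 16.2 kb or more at the 8 genes. These distances are from the outermost start of each gene. The Hnf4a intron site was 14.5 kb from the start of the transcript Hnf4a-004.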

How the data were processed

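REST ChIP-seq of mouse embryonic pancreas was analysed from 5 peak lists that the authors deposited, 1 per library. Per the labels and the study's methods, reads were aligned with Bowtie2 2.2.5 and peaks called against input with MACS2 2.1.0. The study's own E13.5 peak set was called on pooled libraries at a stricter limit and was not used here, so a gene without a site in these lists may have one in that set. The list names state removal of duplicates and a false discovery rate of 10%. The authors' score of each peak is a whole number of unit not given in the sources used here, and it was used only as a rank within its library. Both NCBI36 and mm9 are named in the notes, and positions are mm9, counted from 1. Overlapping entries of a list were merged (7, 2, 4, 2 and 3 removed), and peaks overlapping by 1 bp were joined across libraries. Genes came from GENCODE vM1, with 1 entry per symbol, and their starts are the outermost ones. Peaks on unplaced sequence were counted but not searched.

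The matrix was learnt from the most enriched 9-mer in 500-bp windows over 12 rounds, keeping hits above 0.4 of the largest score. Stages were compared with an exact two-sided permutation test. Intervals are exact (Clopper-Pearson, 95%) and cover counting error only. Libraries of 1 stage are biological replicates per the labels, and letters shared between stages were not treated as pairs. All 8 genes are named, with the bound genes of the other lists, the gene with the nearest start to a member site and, for unbound members, the nearest shared site. Nearest peaks in single libraries, the base composition, the spaced search and the nearest-start rule were added after the data were seen. The 8 genes and the other lists were chosen with earlier results of these data known. Window sizes, peak sets, overlaps and matrices were varied. The scripts (Python 3.11.15, NumPy 2.4.6, SciPy 1.17.1, numba 0.67.0) were tested on simulated data.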

Additional observations from a re-analysis of the deposited data

How the results depend on the processing

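Of 60 alternative values, 38 stayed close to the reported one, 21 moved and 1 turned its direction. Close means within 1.5 times for counts, shares and distances, the same direction for the stage difference, and within 1 SD of both libraries for mean ranks. Ranked among shared sites only, the Hnf4a sites had mean ranks of 60.9 and 64.4, which moved past their small SDs only. The count of 3 bound genes fell to 2 with 50 kb (Ptf1a and Hnf4a), with the basal domain and extension (Ptf1a and Hnf4a) and with the upper 50% of peaks (Hnf4a and Pdx1), to 1 with 5 kb (Hnf4a) and with the nearest start (Ptf1a), and to 0 with the 226 top peaks. With 50 and 5 kb the gene body was still part of the window, and Hnf4a stayed bound through its intron site. The nearest-start rule used 1 start per gene, and shorter Hnf4a transcripts began closer to the intron site than Ttpal did. The count was 3 with 200 kb, with an overlap of 50% and without either E13.5 library. The share of all genes was 6.92% with 50 kb, 20.5% with 200 kb, 2.83% with 5 kb, 6.91% with the basal domain and extension, 2.73% with the 226 top peaks, 6.81% with the upper 50% of peaks and 4.37% with the nearest start. It was 13.1% to 13.6% without 1 of the E13.5 libraries. The difference between stages was 2, 2.83 and 1 genes per library with 50, 200 and 5 kb, 1.83 with the upper 50% of peaks and -0.167 with the 226 top peaks, where the sign turned. It ranged from 2 to 2.5 without 1 library. Taken as paired by letter (replicate block), it was 2 (exact p = 0.5, the smallest 2 pairs allow). The letters mark no shared embryos. At the limit reached by 1 in 100 control windows 29 matches were counted, of which 3 were in sites, and without 1 E13.5 library the matches stayed at 7. Allowing the spaced element, 4 of 4 sites held a match. Bound progenitor factors were 1 with 50 kb, 4 with 200 kb and 1 with the basal domain and extension, acinar genes 1 with 200 kb, and family relatives 0, 4 and 1. The median distance of the bound genes from the gene body was 16.2 kb. The cause of these moves was not tested, beyond the number of sites or bases that each rule admits. Unknown depth limits the reading of every missing peak.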
